A study of Mus musculus with 12 samples.

Results

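The genes described here encode the proteins of the cytosolic ribosome. They were taken as every probe set whose single annotated gene carries a symbol of the Rpl or Rps series, including Rplp0, Rplp1, Rplp2 and Rpsa where measured and leaving out the Rps6k kinases and pseudogenes. This rule selected 105 of 45037 probe sets and 49 of 18193 genes, 23 of the small (40S) and 26 of the large (60S) subunit.

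Transcripts were measured on 12 one-colour Affymetrix arrays of RNA from cultured C57Bl/6j mouse astrocytes that carried the green fluorescent protein eGFP. In all 4 groups the cells lay for 22 h on a mouse brain section, and were then loosened with trypsin and picked off by suction. The mice that gave the cells were neonatal, with an age of 3 d in the sample labels and of 2 days in the protocol, or adult (6 to 8 weeks). The section was wild-type (WT) or from the transgenic APdE9 line, whose WT littermates gave the WT sections. This line carries a chimeric mouse/human APPSwe and a PS1-dE9 vector, each under a mouse prion protein promoter element. The groups were therefore neonatal cells on WT sections, neonatal cells on APdE9 sections, adult cells on WT sections and adult cells on APdE9 sections, with 3 arrays each. The protocol names C57Bl/6j wild-type and eGFP mice as the source of the astrocytes, and no group was without a section. Percoll was used for adult cells, whose medium was DMEM/F12 plus G5 supplement, whereas neonatal cells had plain DMEM and no Percoll. Age, medium and isolation thus cannot be told apart here. Each RNA came from a pool (n = 3), and the p-values speak of the spread between such pools alone, some of which may be technical.

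A cytosolic ribosome joins a small subunit, which reads the messenger RNA, to a large subunit, which forms the peptide bond. Its proteins are made in near-equal numbers, and many of their messenger RNAs begin with a run of pyrimidines, the terminal oligopyrimidine (TOP) tract, through which mTOR signalling and the protein Larp1 adjust their translation. Transcript levels of these genes are high in most cells and tend to move together, and a few members have a second gene copy that is expressed in a more restricted set of tissues. In astrocytes, ribosomes lie in the cell body and also in the fine processes, where local translation has been described.

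Every probe set had been centred on its own median over the 12 arrays, and its values are here called the centred log2 signal. Differences between groups can be read from it and levels cannot, so neither the order of the ribosomal protein genes by abundance nor the presence of astrocyte markers could be checked. For each gene its single-gene probe sets were averaged. Of the 49 genes, 25 rested on 1 probe set and 24 on several, up to 6. The manufacturer's x suffix stood on 40 of the 105 probe sets and the s suffix on 3, and both mark probes that can match other transcripts. A further 110 probe sets were paired with several genes, usually a ribosomal protein gene and its pseudogenes, and named 29 ribosomal protein genes outside the 49, among them Rplp1, Rpl3, Rpl5, Rpl10, Rpl31, Rpl36a and Rpl36al. They are not members and are given separately.

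The arrays differed in how high they placed the whole set. The median centred log2 signal of the 49 genes was -0.20, -0.079 and -0.0043 in the neonatal WT arrays 1, 2 and 3, and -0.041, -0.15 and -0.062 in the neonatal APdE9 arrays. It was -0.023, 0.069 and 0.12 in the adult WT arrays and 0.10, 0.16 and 0.095 in the adult APdE9 arrays. Array 1 was the lowest of its group for 40 of the 49 genes in the neonatal WT group and for 37 in the adult WT group, and array 2 for 34 in the neonatal APdE9 group. Within groups, the deviations of the 49 genes from their group means had a mean pairwise correlation of 0.317 over the 12 arrays, against 0.013 for all genes, a description in which every gene shares the same arrays. Their median within-group SD was 0.10, against 0.13 for all genes. The control probe sets of the 3' and 5' ends differed by -0.11 to 0.21 for Gapdh and by -0.23 to 0.16 for beta-actin over the 12 arrays, and the 18S rRNA control by -0.55 to 0.39. These are differences of centred values, so they compare arrays and do not give the ratio of end signals within an array. On WT sections the arrays of the 2 ages did not overlap in this measure for Gapdh (0.063 to 0.21 in neonatal and -0.10 to -0.055 in adult cells) or for beta-actin (-0.058 to 0.058 and -0.23 to -0.21). In adult cells the WT arrays also lay below the APdE9 arrays for both (-0.026 to 0.077 and -0.0072 to 0.079 on APdE9 sections). The part of this in either comparison was not tested.

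**Figure D1:**
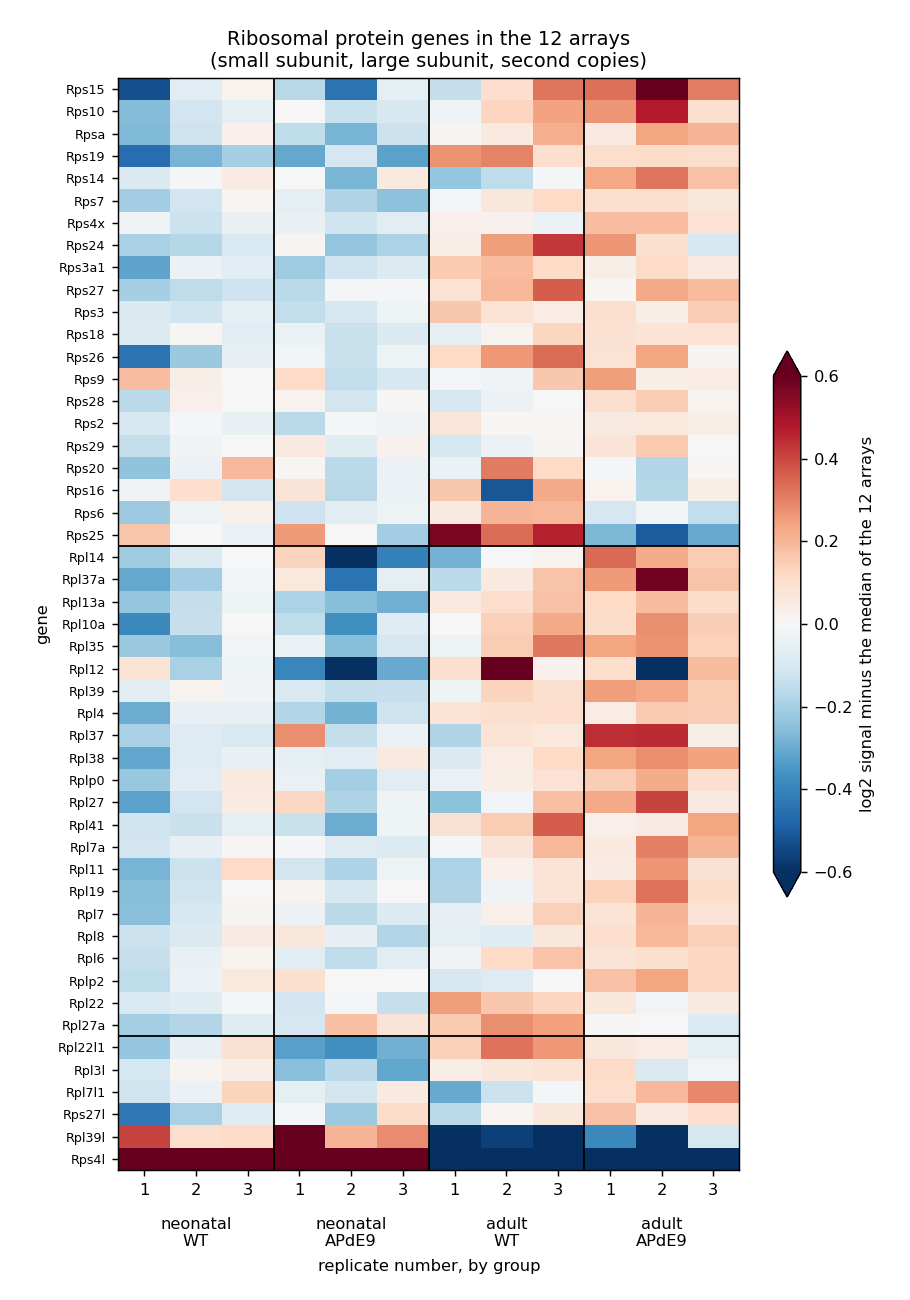
Centred log2 signal (colour, saturating at 0.6 in either direction) of the 49 ribosomal protein genes (rows, by small subunit, large subunit and second copies) in the 12 arrays (columns, by group and replicate number). Most rows are blue in the neonatal and red in the adult arrays, while Rpl39l and Rps4l run the other way, and the neonatal WT array 1 and the neonatal APdE9 array 2 are the bluest columns of their groups.

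The first bases of the genes that the later results turn on are printed below, because a TOP tract is defined at the start of the transcript. Each window holds the 10 bases before and the 20 bases from the first start listed by RefSeq (assembly GRCm38.p6), 5′ to 3′ on the gene's strand. Capitals mark a stretch of at least 5 C or T, read from the nearest fitting C no more than 5 bases from that start to the end of the run. Any C or T just before that C stays in lower case.
Rpl13a at chr7:45128726-45128755 (minus strand): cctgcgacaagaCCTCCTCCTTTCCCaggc
Rpl27a at chr7:109519185-109519214 (plus strand): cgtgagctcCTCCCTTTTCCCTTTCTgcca
Rpl35 at chr2:39005112-39005141 (minus strand): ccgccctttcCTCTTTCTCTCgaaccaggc
Rpl22l1 at chr3:28805498-28805527 (plus strand): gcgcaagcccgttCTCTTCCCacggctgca
Rps10 at chr17:27635225-27635254 (minus strand): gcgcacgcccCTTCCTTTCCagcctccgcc
Rps26 at chr10:128626487-128626516 (minus strand): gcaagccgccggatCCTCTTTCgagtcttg
Rps27 at chr3:90213629-90213658 (minus strand): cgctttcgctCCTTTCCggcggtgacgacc
Rps15 at chr10:80292421-80292450 (plus strand): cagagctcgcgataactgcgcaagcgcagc
Rps19 at chr7:24884582-24884611 (plus strand): aatctcgcgagactcgacgcccgacttgtg
Rps25 at chr9:44407704-44407733 (plus strand): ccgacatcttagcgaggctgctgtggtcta
Rpl39l at chr16:10170218-10170247 (plus strand): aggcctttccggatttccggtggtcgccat
Of the 49 genes, 43 had a start in the RefSeq table, and 7 of these had several. Such a stretch, here called a pyrimidine tract, was found in 20 of 43 (46.5%), against 19.9% of the 14368 genes of the fit with a start. In 15 of the 20 it began inside a longer pyrimidine run, as in Rpl35 and Rpl27a, and in 5 it followed a purine. Among the 2855 genes of the fit with such a stretch, it began inside a longer run in 1247 and followed a purine in 1608. The letters CCGGAAG, the core recognised by ETS factors such as GABPA, stood on either strand in 21 of 43 windows from 250 bases before to 50 after the start (48.8%), against 13.8% of all genes. In the same windows AAGATGGC, the YY1 core, occurred in 3 (6.98%, against 3.71%) and TATAAA in 5 (11.6%, against 9.86%). A match describes these letters only, and a window without capitals says only that no such stretch lay there.

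The first question was whether these genes differed between astrocytes of the 2 ages on the same kind of section. On WT sections 12 of the 49 genes were higher and 2 were lower in adult than in neonatal cells (limma, Benjamini-Hochberg adjusted p under 0.05 over all 18193 genes), while 14.9% of all genes were called higher and 15.2% lower, 30.1% in all. The shifts upward were small, with a median of 0.16 over the 49 genes against 0.012 over all genes, and 41 of 49 lay above 0 (83.7%, against 52.3% of all genes). In 18 genes all adult arrays lay above all neonatal ones (21.7% of all genes did) and in 2 below (20.3%). The largest rise was that of Rps19, a small subunit protein needed for 18S rRNA maturation. Its centred log2 signal was -0.46, -0.28 and -0.20 in the neonatal and 0.27, 0.30 and 0.10 in the adult arrays on WT sections. The groups did not overlap, and the difference was 0.54 ± 0.092 (SE), a 1.45-fold rise (adjusted p = 0.000692).

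Rps26, which lies at the exit channel for messenger RNA on the small subunit, stood at -0.44, -0.22 and -0.047 in neonatal and 0.12, 0.26 and 0.33 in adult cells on WT sections, a rise of 0.48 ± 0.11 (SE; adjusted p = 0.00427). Rpl27a, a large subunit protein, rose by 0.38 ± 0.085 from -0.20, -0.18 and -0.072 to 0.16, 0.28 and 0.25 (adjusted p = 0.0044). Rps27, a zinc-finger protein of the small subunit, rose by 0.38 ± 0.091 from -0.20, -0.15 and -0.12 to 0.086, 0.20 and 0.36 (adjusted p = 0.00714). In each of these 3 genes all adult arrays lay above all neonatal ones, in the comparison where the Gapdh and beta-actin end controls also did not overlap. The other called rises on WT sections were those of Rps25 (0.41), Rps24 (0.39), Rpl41 (0.31), Rpl22l1 (0.30), Rps3a1 (0.29), Rpl13a (0.25) and Rpl22 (0.24), without overlap. Rpl35 was also called (0.31) although its arrays overlapped. The number of called genes on WT sections fell from 14 to 7 without neonatal WT array 1, to 7 without neonatal WT array 2, to 7 without adult WT array 2 and to 9 without adult WT array 3. How the share of all genes called changed in these fits was not counted. Of the 14 calls, those of Rps4l, Rpl39l, Rps19, Rps26, Rpl27a and Rps27 (6 genes) survived the removal of any 1 array.

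On APdE9 sections 18 of the 49 genes were higher in adult cells, against 11.7% of all genes, and 3 were lower, against 11.9% (23.5% in all). The median difference was 0.23 over the 49 genes and 0.053 over all genes, and 44 of 49 lay above 0 (89.8%, against 60.6%). The 3 adult arrays lay above the 3 neonatal ones in 33 of the 49 genes, against 20.8% of all genes, and below them in 3, against 16.4%. The largest rise was in Rps15, which sits at the head of the small subunit and takes part in export of its precursor. It stood at -0.17, -0.44 and -0.052 in neonatal and 0.33, 0.75 and 0.31 in adult cells on APdE9 sections, a rise of 0.68 ± 0.18 (SE; adjusted p = 0.0131). Both of its probe sets gave this rise (0.67 and 0.69).

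Rpl14, a large subunit protein, stood at 0.13, -0.80 and -0.40 in neonatal and 0.34, 0.22 and 0.15 in adult cells on APdE9 sections, a rise of 0.59 ± 0.18 (adjusted p = 0.0329) with a wide spread in the neonatal arrays. It rests on 1 member probe set, and the probe sets it shares with a pseudogene rose less (0.30 to 0.37). Rpl37a, at 0.066, -0.44 and -0.055 and then 0.26, 0.58 and 0.17, rose by 0.48 ± 0.15 (adjusted p = 0.0347). Rpl13a, known outside the ribosome as part of a complex that represses inflammatory messenger RNAs, had tighter arrays, at -0.19, -0.25 and -0.29 in neonatal and 0.12, 0.19 and 0.11 in adult cells. Its rise was 0.38 ± 0.075 (adjusted p = 0.0023), and the groups lay well apart. Rpl39, a very short protein of the peptide exit tunnel, rose by 0.34 ± 0.071 from -0.092, -0.14 and -0.14 to 0.25, 0.23 and 0.15 (adjusted p = 0.00373). Rpl10a (0.38), Rps10 (0.36), Rpsa (0.35), Rps19 (0.35), Rpl35 (0.35) and Rpl22l1 (0.35) followed, and the arrays of the 2 ages did not overlap in any of these 6. Rplp0, the stalk protein often used as a reference gene, rose by 0.26 (adjusted p = 0.0486) and Rps4x by 0.23 (adjusted p = 0.0297).

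The number of called genes on APdE9 sections depended on single arrays. It fell from 21 to 7 without neonatal APdE9 array 2, to 7 without adult APdE9 array 2, to 10 without adult APdE9 array 1, to 11 without neonatal APdE9 array 3 and to 13 without adult APdE9 array 3. Rpl13a, Rpl39, Rpl39l and Rps4l kept their call whichever of the 12 arrays was removed, although the probe sets that Rpl13a and Rpl39 share with other genes did not pass. Rps15 lost it without neonatal APdE9 array 2 or adult APdE9 array 2 (highest adjusted p = 0.063), and Rplp0 on removal of any of 10 arrays, that is all but neonatal WT arrays 1 and 3 (0.156). Centring each array on its median left 7 genes higher and 3 lower, and quantile normalization left 7 higher and 2 lower. Under quantile normalization the WT sections gave 6 higher and 2 lower. The share of all genes called was not counted in the fits with an array left out or under these scalings.

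Other members of the fixed panel passed in neither age comparison, or in 1 of them. Rps6, whose phosphorylation is the usual readout of S6 kinase activity, stood at -0.22, -0.033 and 0.030 in neonatal and 0.056, 0.20 and 0.20 in adult cells on WT sections, and at -0.12, -0.064 and -0.029 and -0.10, -0.018 and -0.15 on APdE9 sections. The adult arrays lay above the neonatal ones on WT sections (0.23 ± 0.084, adjusted p = 0.0618) and the groups overlapped on APdE9 sections (-0.017 ± 0.084, adjusted p = 0.916). The latter value averages 2 probe sets of opposite sign, which are given with the other probe sets. Rpl7 differed by 0.15 on WT (adjusted p = 0.243) and by 0.22 on APdE9 sections (adjusted p = 0.0995). Rpl11 differed by 0.070 and 0.24 (adjusted p = 0.721 and 0.152), and the stalk protein Rplp2 by -0.016 and 0.15 (adjusted p = 0.915 and 0.202). Rpsa, the laminin receptor precursor of the small subunit, differed by 0.22 on WT sections (adjusted p = 0.112), where it did not pass, and rose on APdE9 sections as given above.

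The age comparisons on WT and on APdE9 sections share no arrays, though they share 1 estimate of the spread. They had 7 called genes in common, which is 50% of the 14 called on WT and 33.3% of the 21 called on APdE9 sections. The share of all genes called on both was not counted, so whether this overlap is unusual cannot be said. Rps19, Rpl13a, Rpl22l1 and Rpl35 were higher in adult cells on both, Rps4l and Rpl39l were lower on both, and Rps25 was called in opposite directions. A further 21 genes were called on 1 section type alone, and the difference between the age effects was itself called for 1 of them, Rpl27a, so the remainder are not shown to differ between sections. By subunit, 6 of 21 small subunit genes were higher and 0 lower on WT sections (median 0.19), and 5 of 22 large subunit genes were higher and 0 lower (median 0.15), with second copies left out. On APdE9 sections 7 of 21 small subunit genes were higher and 1 was lower (median 0.18), and 9 of 22 large subunit genes were higher and 0 lower (median 0.26). Genes with a pyrimidine tract at the start had medians of 0.22 on WT and 0.22 on APdE9 sections (20 genes), and genes without one 0.17 and 0.24 (23 genes).

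**Figure D2:**
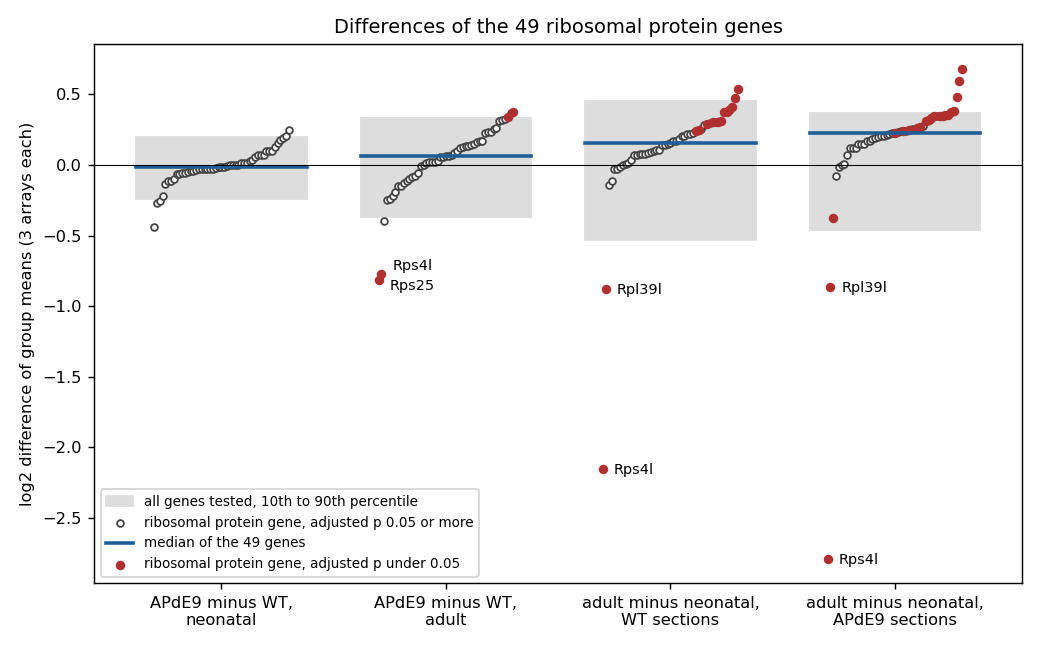
Difference of group means on the log2 scale (vertical axis) for each of the 49 ribosomal protein genes (points, sorted within each of 4 comparisons), with filled points past an adjusted p of 0.05, a blue line at their median and a grey box from the 10th to the 90th percentile of all genes tested. The medians lie at -0.012 and 0.066 for the section comparisons and at 0.16 and 0.23 for the age comparisons, and Rps4l and Rpl39l lie far below the others in both age comparisons.

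Markers of microglia and of astrocytes also differed between the ages. Of 17 measured microglial markers 16 were lower and 1 higher in adult cells on WT sections, and 16 were lower and 0 higher on APdE9 sections (median differences -3.77 and -3.63). Their mean centred log2 signal per array was 1.44 to 1.97 in neonatal cells on WT, 2.00 to 2.14 in neonatal cells on APdE9, -2.31 to -2.07 in adult cells on WT and -1.58 to -1.54 in adult cells on APdE9 sections. Of 12 astrocyte markers 9 were lower and 2 higher in adult cells on WT sections, and 7 lower and 1 higher on APdE9 sections, with differences of -4.24 and -3.45 for Gfap. The labels' protocol states that cultures of both ages held on average 99.6% GFAP-positive cells by staining and less than 0.4% microglia. Of 10 oligodendrocyte markers 4 were lower and 0 higher on WT sections, and 3 lower and 2 higher on APdE9 sections. Of 20 cell cycle genes 3 were higher and 0 lower with age on WT sections, and 11 were lower and 0 higher on APdE9 sections (median differences 0.011 and -0.46). Neuronal markers were higher for 2 and lower for 3 of 12 on WT sections, and endothelial and mural markers higher for 5 and lower for 2 of 10. On APdE9 sections these were 1 higher and 2 lower, and 4 higher and 1 lower. Because levels had been removed, no marker could be read as absent. The part of these cells, of the medium and of the isolation in the shifts of the ribosomal protein genes was not tested, and in pooled RNA fewer cells of a type and less RNA per cell cannot be told apart.

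The largest differences of the whole set belonged to second gene copies. Rps4l, a like-named copy of the X-linked small subunit gene Rps4x, stood at 0.77, 1.34 and 1.54 in neonatal cells on WT sections and at 1.13, 0.89 and 1.24 on APdE9 sections. In adult cells it stood at -1.21, -0.82 and -0.77 on WT and at -1.68, -1.39 and -2.04 on APdE9 sections, far below every neonatal array. The adult signal was lower by 4.44-fold on WT sections (log2 difference -2.15 ± 0.21, SE; adjusted p = 5.75e-06) and by 6.91-fold on APdE9 sections (-2.79 ± 0.21; adjusted p = 7.49e-07). Rps4x itself differed by 0.070 on WT (adjusted p = 0.524) and rose by 0.23 on APdE9 sections.

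Rpl39l, a copy of Rpl39 best known from testis, stood at 0.40, 0.11 and 0.12 in neonatal cells on WT sections and at -0.63, -0.56 and -0.82 in adult cells there. On APdE9 sections it stood at 0.88, 0.20 and 0.29 in neonatal and at -0.39, -0.73 and -0.11 in adult cells. All adult arrays lay below all neonatal ones, with a difference of -0.88 ± 0.19 on WT (adjusted p = 0.00306) and of -0.86 ± 0.19 on APdE9 sections (adjusted p = 0.00449). Rpl39 differed by 0.090 on WT sections (adjusted p = 0.405) and rose on APdE9 sections, as given above. Rpl22l1 and Rpl22, whose protein is known to repress Rpl22l1, both rose on WT sections. On APdE9 sections Rpl22l1 rose and Rpl22 differed by 0.12 (adjusted p = 0.256). Rps27l, a p53 target, differed by 0.21 on WT and by 0.15 on APdE9 sections, and neither passed (adjusted p = 0.208 and 0.382). Rpl3l, a muscle copy of Rpl3, rose by 0.24 on APdE9 sections (adjusted p = 0.0427), a call lost on removal of any of 8 arrays (neonatal WT array 2, neonatal APdE9 array 1 or 3, adult WT array 1, 2 or 3, adult APdE9 array 1 or 3) and again in the fit blocked by replicate (adjusted p = 0.0528). Rps4l and Rpl39l each rest on 1 probe set, and neither had another to set beside it.

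**Figure D3:**
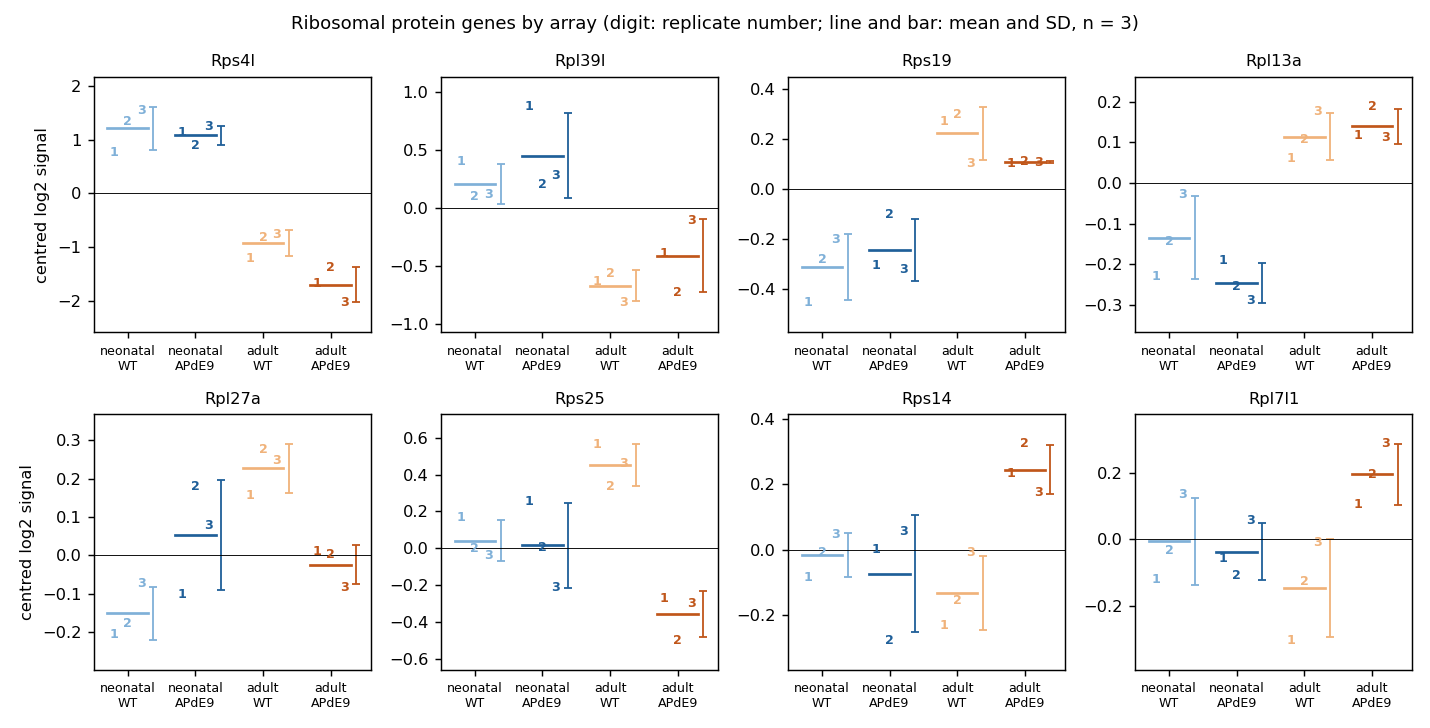
Centred log2 signal (vertical axes, each on its own scale) of 8 ribosomal protein genes in the 4 groups, where each digit is 1 array by its replicate number and the line and bar give the mean and SD of 3 arrays. Rps4l and Rpl39l are lower and Rps19 and Rpl13a higher in all adult arrays, Rps25 is low in the adult APdE9 arrays (-0.50 to -0.27), and Rps14 and Rpl7l1 are high there.

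The second question was whether the transgenic section changed these genes. In neonatal cells 0 of 49 genes passed the limma test, against 3.75% of all genes (1.21% higher and 2.54% lower), and the median difference between APdE9 and WT sections was -0.012 (all genes 0.0018). At an unadjusted p under 0.05 there were 3 of 49, against 14.8% of all genes. With array weights the same test called 3 (1 higher, 2 lower), and the share of all genes called with weights was not counted. The set spread narrowly, with 10th and 90th percentiles of -0.12 and 0.13, against -0.24 and 0.20 for all genes. The arrays of the 2 groups did not overlap in 4 genes, all lower on APdE9 sections (10.4% of all genes were so lower and 7.31% higher). These were Rpl22l1 (-0.27, adjusted p = 0.159), Rpl3l (-0.22, adjusted p = 0.182), Rpl39 (-0.10, adjusted p = 0.613) and Rpl12 (-0.44, adjusted p = 0.431), the last chosen for mention after its values were seen. Rpl12 rests on 1 member probe set. The probe sets it shares with other genes, 1416026_a_at and 1435725_x_at, gave 0.012 and 0.052 (adjusted p over probe sets = 0.992 and 0.942). Rps6 (0.0013), the substrate of the S6 kinases, Rplp0 (-0.027) and Rpl11 (-0.011), which can bind Mdm2, differed by less than their standard errors of 0.084, 0.087 and 0.11. The shared Rpl11 probe set 1448773_at gave -0.54 (adjusted p over probe sets = 0.218). By section in neonatal cells 5 of 12 astrocyte markers were lower and 0 higher (median -0.34). Cell cycle genes were lower for 3 and higher for 0 of 20 (median -0.52). Microglial markers were higher for 3 and lower for 0 of 17 (median 0.48), and oligodendrocyte markers higher for 2 and lower for 2 of 10. Endothelial and mural markers were higher for 1 and lower for 0 of 10, and 0 of 12 neuronal markers passed. The part of these lists was not tested.

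In adult cells 2 of 49 genes were higher and 2 lower on APdE9 than on WT sections, together 8.16%, against 17.7% of all genes in either direction (8.26% higher and 9.4% lower). The median difference was 0.066, against 0.049 for all genes. Rps25, a small subunit protein used by some viral and cellular internal ribosome entry sites, stood at 0.56, 0.34 and 0.46 on WT and at -0.27, -0.50 and -0.30 on APdE9 sections. All APdE9 arrays lay below all WT arrays, with a difference of -0.81 ± 0.12 (SE; adjusted p = 0.000516), a 1.75-fold fall. Rps4l fell further on APdE9 sections, with a difference of -0.77 (adjusted p = 0.0237). Rps14, whose loss underlies the anaemia of the human 5q deletion syndrome, stood at -0.23, -0.15 and -0.0083 on WT and at 0.23, 0.32 and 0.18 on APdE9 sections. The groups did not overlap, and the rise was 0.37 ± 0.099 (adjusted p = 0.0201). Rpl7l1, a Rpl7-like protein of nucleolar precursors, rose by 0.34 ± 0.099 from -0.30, -0.13 and -0.0088 to 0.10, 0.19 and 0.29 (adjusted p = 0.0313).

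Of these 4, Rps25 alone kept its adult section call whichever array was removed. Without adult WT array 1 the number called fell from 4 to 2, without adult WT array 2 to 1 and without adult APdE9 array 2 to 2. For all genes the share called in these fits was not counted. The call of Rps4l was lost without adult WT array 2 or 3 or adult APdE9 array 1 or 3 (highest adjusted p = 0.0871). That of Rps14 was lost without adult WT array 1 or 2 or adult APdE9 array 2 (0.0805), and that of Rpl7l1 without adult WT array 1 or 2 or adult APdE9 array 2 or 3 (0.119). Other genes of the fixed panel gave differences that did not pass, such as Rplp2 (0.24, adjusted p = 0.0546), Rps6 (-0.24, adjusted p = 0.0678), Rpl11 (0.16, adjusted p = 0.366), Rpl22 (-0.15, adjusted p = 0.193) and Rpl7 (0.082, adjusted p = 0.572). Among large subunit genes 18 of 22 lay above 0 (median 0.11) with none past the test, and among small subunit genes 12 of 21 (median 0.021). In this comparison 67.3% of the 49 genes and 60% of all genes lay above 0. In the same comparison 15 of 20 cell cycle genes were lower on APdE9 sections (median difference -1.14), their mean centred log2 signal per array being 0.092 to 0.62 on WT and -0.82 to -0.63 on APdE9 sections. Microglial markers were higher for 6 and lower for 1 of 17, oligodendrocyte markers higher for 6 and lower for 1 of 10 (median 0.42), and astrocyte markers higher for 5 and lower for 2 of 12. Of 12 neuronal markers 0 were higher and 2 lower, and of 10 endothelial and mural markers 0 were higher and 1 lower. The part of these lists in the values of the ribosomal protein genes was not tested.

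The section effect was compared between the ages by an interaction contrast, which is also the difference between the age effects of the 2 section types. The section and age comparisons share arrays, so their values are only set side by side. It was called for 2 of 49 genes, both lower, against 4.88% of all genes called lower, 5.19% higher and 10.1% in either direction. For Rps25 the adult minus the neonatal section effect was -0.79 ± 0.17 (SE; adjusted p = 0.0116), with a difference of -0.025 in neonatal cells. Rpl27a stood at -0.20, -0.18 and -0.072 and -0.10, 0.18 and 0.079 in neonatal cells on WT and APdE9 sections and at 0.16, 0.28 and 0.25 and 0.0090, 0.0029 and -0.084 in adult cells. Its section difference was 0.20 in neonatal and -0.25 in adult cells, neither past the test (adjusted p = 0.272 and 0.0617), and their difference was -0.45 ± 0.12 (adjusted p = 0.0324). Leaving out 1 array ended the Rpl27a call in 8 of 12 fits, those without neonatal WT array 1 or 2, neonatal APdE9 array 2 or 3, adult WT array 2 or 3, or adult APdE9 array 2 or 3, where the number called was 1.

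Probe sets of the same gene did not always give the same difference, and this bore on Rps25. Its call came from probe set 1430978_at alone. Another probe set, 1451068_s_at, is paired with Rps25 and 2 predicted genes and is thus no member. It stood at 0.026, 0.14 and 0.16 in adult cells on WT and at 0.19, 0.33 and 0.12 on APdE9 sections, a difference of 0.10 (adjusted p over probe sets = 0.53). On the age comparisons it gave 0.27 on WT and 0.28 on APdE9 sections, where the medians of the 49 genes were 0.16 and 0.23, whereas 1430978_at gave 0.41 and -0.37. Which of them reports the Rps25 transcript was not tested.

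The adult section differences of the 6 probe sets of Rps24 ran from -1.31 (1455195_at, adjusted p = 0.106) to 0.14, and the other 5 lay between 0.063 and 0.14. The adult arrays of 1455195_at overlapped, at 0.62, 1.43 and 1.19 on WT and at 1.08, -0.92 and -0.85 on APdE9 sections. The same 1455195_at gave 0.96 in the age comparison on WT sections, where the others gave -0.00080 to 0.40. For Rpl27a the 2 probe sets gave -0.43 (1437729_at, adjusted p = 0.0208) and -0.068 (1419799_at) in adult cells, and a shared probe set 0.090. With age on WT sections 1437729_at gave 0.54 and 1419799_at 0.22. The shared 1426661_at gave 0.090 there (adjusted p over probe sets = 0.594). The 2 probe sets of Rps6 had differences of opposite sign with age on APdE9 sections, 0.38 for 1416142_at (adjusted p over probe sets = 0.0147) and -0.42 for 1453466_at (adjusted p = 0.0746), the widest range of any member in that comparison. On WT sections 1416142_at rose by 0.39 (adjusted p = 0.00919) and 1453466_at gave 0.057 (adjusted p = 0.849). By section in adult cells they gave -0.042 and -0.44 (adjusted p = 0.834 and 0.0716). Of the 6 Rpl35 probe sets, the 5 with an a or x suffix gave 0.34 to 0.50 on WT sections, and the plain 1454833_at gave -0.13. Rps19 had 1 member probe set, and the shared 1460442_at gave 0.0020 on WT sections where the member gave 0.54. On APdE9 sections this shared probe set gave 0.038 (adjusted p over probe sets = 0.889), where the member gave 0.35. With age on APdE9 sections the single member probe set of Rpl39 gave 0.34, and the shared 1450840_a_at gave 0.023 (adjusted p over probe sets = 0.899). The 4 member probe sets of Rpl13a gave 0.18 to 0.48 there, and the shared 1435873_a_at and 1422115_a_at gave 0.065 and -0.039 (adjusted p = 0.639 and 0.865). With age on WT sections the Rpl14 member probe set gave 0.010 and its shared probe sets 0.24 to 0.36. Of these, 1426793_a_at alone passed (adjusted p over probe sets = 0.0444). For Rps27 the shared 1415716_a_at rose by 0.54 with age on WT sections (adjusted p = 0.0342), the same direction as its member. On APdE9 sections it gave 0.36 (adjusted p = 0.184). Rps14 and Rpl7l1 had probe sets of the same sign in adult cells, 0.36 and 0.38 for Rps14 and 0.30, 0.31 and 0.41 for Rpl7l1. Both Rps14 probe sets carry the x suffix, and the gene had no plain member probe set.

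**Figure D4:**
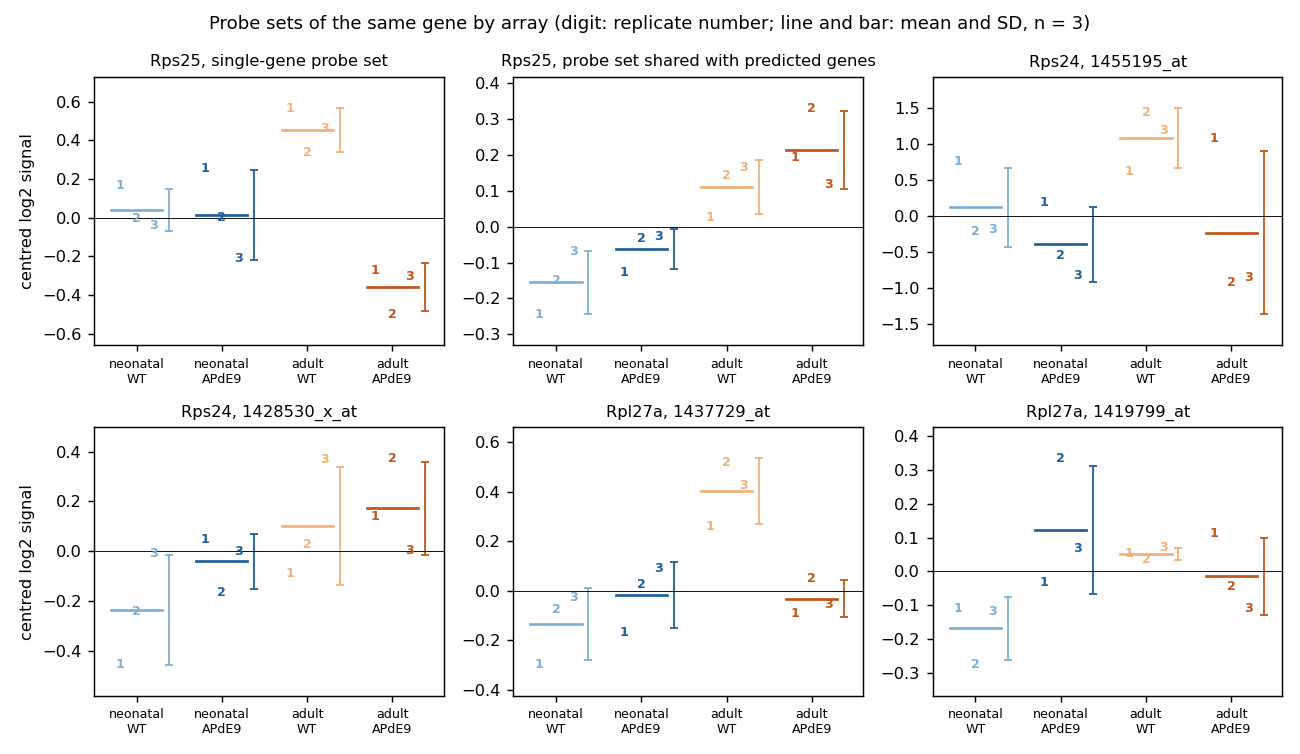
Centred log2 signal (vertical axes, each on its own scale) of 2 probe sets each of Rps25, Rps24 and Rpl27a in the 4 groups, where each digit is 1 array by its replicate number and the line and bar give the mean and SD of 3 arrays. The single-gene Rps25 probe set is low in adult cells on APdE9 sections (-0.50 to -0.27) while the shared one is not. Rps24 and Rpl27a each have 1 probe set whose adult group means lie further apart than those of the other. For Rps24 the adult arrays of that probe set overlap.

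Counted as probe sets, 0 of 105 passed in neonatal cells (2% of all 45037 did), and 5 were higher and 4 lower in adult cells (5.73% and 6.98%). On WT sections 14 were higher and 2 lower in adult cells (12.2% and 10.8%), and on APdE9 sections 24 higher and 2 lower (8.04% and 8.39%). The 110 probe sets shared with other genes gave medians of 0.034 and 0.047 for the section in neonatal and adult cells, with 0 called in neonatal cells and 2 higher and 3 lower in adult cells. Their medians for age were 0.19 on WT and 0.21 on APdE9 sections, with 20 higher and 0 lower and with 13 higher and 0 lower. Rplp1, another stalk protein, rose by 0.32 on WT sections through such a probe set (adjusted p over probe sets = 0.0121). Rpl5, the 5S RNA-binding partner of Rpl11, gave 0.16 there (1423665_a_at, adjusted p = 0.166), while 1423666_s_at gave -0.13 and 1451077_at -0.0037. By section in adult cells 1423666_s_at was higher (0.43, adjusted p = 0.0472), as with age on APdE9 sections (0.43, adjusted p = 0.0365). In these comparisons 1451077_at gave 0.36 and 0.42 and 1423665_a_at -0.017 and 0.12, none past the test. One of 5 shared Rpl31 probe sets, 1420381_a_at, fell with a difference of -0.67 in adult cells on APdE9 sections (adjusted p = 0.000782), and the other 4 gave 0.0006 to 0.079. Rpl31 was chosen for mention after its values were seen.

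Other genes of ribosome production and use were counted in the same comparisons, and each count below stands against the share of all genes called. This share was 14.9% higher and 15.2% lower for age on WT sections, 11.7% and 11.9% for age on APdE9 sections, 1.21% and 2.54% by section in neonatal cells, and 8.26% and 9.4% by section in adult cells. Of 53 ribosome assembly factors 16 were higher and 0 lower in adult cells on WT sections (median 0.19, all genes 0.012), led by the box C/D proteins Nop58 (0.84) and Nop56 (0.79) and the 18S end nuclease Nob1 (0.79). On APdE9 sections 3 were higher and 0 lower (median 0.052), where Nop58 differed by -0.026 and Nop56 by -0.15, neither past the test. The difference between these age effects was called lower for 5 and higher for 1 of the 53, Nop56 among them (-0.94, adjusted p = 0.00132). In neonatal cells 4 of the 53 were higher on APdE9 sections and 0 lower (median 0.19, all genes 0.0018), among them Nop56 (0.57), Nhp2 (0.53) and Pno1 (0.46), where 0 of the 49 ribosomal protein genes passed. In adult cells 4 were higher, such as the 2'-O-methyltransferase Fbl (0.61) and Rrp9 (0.56), and 4 lower, such as Nop56 (-0.37).

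Of 15 genes of RNA polymerase I and its factors 1 was higher in adult cells on WT (14.9% of all genes) and 2 on APdE9 sections (11.7%), with 0 lower, and Ubtf, which marks active ribosomal RNA genes, rose by 0.65 and 0.51. Of 18 elongation factors and other products of TOP messenger RNAs 7 were higher and 0 lower on WT sections (median 0.25), with Eif4b (0.62), Pabpc1 (0.56) and Eif3e (0.39) leading. On APdE9 sections 3 were higher and 0 lower (median 0.18), Eif4b (0.54), Eef2 (0.40) and Eif3f (0.31). Among 24 initiation factors 8 were higher and 2 lower on WT and 4 higher and 1 lower on APdE9 sections, and in adult cells 5 were higher and 4 lower by section. In the list of 25 mTOR and Myc network genes 6 were higher and 3 lower on WT (14.9% and 15.2% of all genes) and 5 higher and 1 lower on APdE9 sections (11.7% and 11.9%). Eif4ebp1, a translation repressor that mTOR inactivates, rose by 1.26 with age on WT sections and fell by 0.60 on APdE9 sections in adult cells (adjusted p = 0.00282). Tsc2, an inhibitor of mTOR complex 1, fell by 0.51 in neonatal cells on APdE9 sections (adjusted p = 0.0466) and rose by 0.43 in adult cells (adjusted p = 0.0353). The 11 measured genes of the p53 response had 3 higher and 1 lower on WT and 2 higher and 1 lower on APdE9 sections.

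The mitochondrial ribosome is built separately from its own proteins. Of their 76 measured genes 11 were higher and 0 lower in adult cells on APdE9 than on WT sections (8.26% and 9.4% of all genes; median 0.20, all genes 0.049), led by Mrps6 (1.05), Mrps18a (0.96) and Mrpl27 (0.79). With age on WT sections 1 was higher and 7 lower (14.9% and 15.2% of all genes; median -0.037), and on APdE9 sections 6 were higher and 0 lower (11.7% and 11.9%; median 0.014). No difference between this list and the cytosolic genes was tested. In neonatal cells 0 of 76 passed by section.

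**Figure D5:**
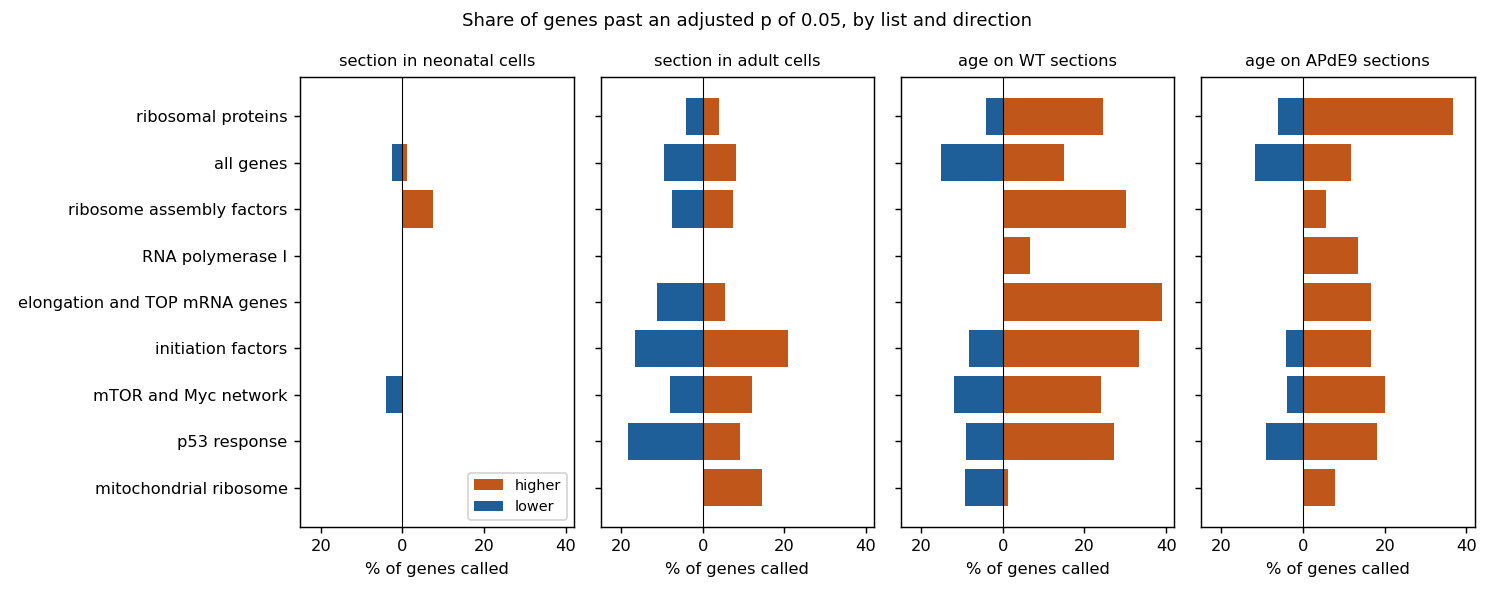
Share of the genes of each list past an adjusted p of 0.05 (horizontal axis, percent; orange to the right for higher, blue to the left for lower) in 4 comparisons, with the 49 ribosomal protein genes and all genes tested in the top rows. In the age comparisons ribosomal protein genes were called higher for 24.5% on WT and 36.7% on APdE9 sections, and in neonatal cells by section the bar for ribosomal proteins is empty.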

How the data were processed

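The deposited table gives 12 arrays, 3 for each of 4 groups. Per the submitters' processing notes the authors computed RMA signals (no version given). As deposited, 8 columns were read as log2 signals, and the authors' other 4 columns were recorded as a score because 6 values there exceed 100 in absolute size. These 6 values were set to missing, none of them in a ribosomal protein gene, and the remaining values of those columns were used as log2 like the others. The log base and genome build are not given in the sources used here. Each of the 45095 complete probe sets had a median of 0 (tolerance 1e-06), which shows that levels had been removed, and no signal over background could be computed. The number of arrays limits the precision.

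After removal of 64 controls from 45101 probe sets, the annotation paired 34945 of the 45037 left with a single gene, 932 with several and 9160 with none. All 105 member probe sets matched RefSeq symbols. Group means (4) were fitted by limma 3.58.1 (R 4.3.3) to all 12 arrays and 18193 genes, with eBayes and Benjamini-Hochberg adjustment over all genes, or over all probe sets where stated. The threshold was an adjusted p of 0.05, and there was no filter on low values. The code was tested on simulated data. Named were, in each comparison, up to 10 called members with the largest rise and 10 with the largest fall without overlap, a fixed panel, and up to 3 called genes of each other list; exceptions are stated. The members and lists were chosen with earlier results of these data known.

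Whether same-numbered arrays pair was tested by the correlation, over genes, of their deviations. On APdE9 sections the 3 correlations between ages were 0.460, 0.206 and 0.473, and between sections in neonatal cells 0.305, 0.147 and 0.518. All pass 0.1, and pairing was taken to hold there, from the data. It was not for sections in adult cells (0.348, -0.147 and 0.497) or for age on WT sections (0.404, 0.025 and 0.405). Alternatives were a replicate block, other scalings, array weights, robust eBayes, other gene summaries, a filter on SD, other thresholds, fewer arrays and, added after seeing the data, the 110 shared probe sets. Figures were drawn with matplotlib 3.10.9.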

Additional observations from a re-analysis of the deposited data

Results flagged for a closer look

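The section effect of Rps25 differed between the ages by -0.79 on the log2 scale (adult minus neonatal, limma interaction contrast, adjusted p = 0.0116). All 3 adult arrays on APdE9 sections lay below all 3 on WT sections, and the neonatal arrays overlapped. The call rests on 1 probe set, and a probe set shared with predicted genes gave 0.011 (adjusted p over probe sets = 0.978).

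The section effect of Rpl27a differed between the ages by -0.45 (adjusted p = 0.0324). Its 2 probe sets gave -0.55 and -0.36, neither past the test over probe sets (adjusted p = 0.0554 and 0.214). A probe set shared with predicted genes gave 0.026 (adjusted p over probe sets = 0.951).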

How the results depend on the processing

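The medians over the 49 genes stayed within 1 within-group SD (0.069) of their values in all settings tried except 3: for age on WT sections with the filter on SD (0.25, of 27 genes left), for the section in adult cells with only plain _at probe sets (-0.054, of 26 genes), and for the difference of section effects over the shared probe sets (0.0047). Counts of called genes moved more. The share of all genes called was not counted under any alternative, the replicate block included, so these counts have no background. For age on APdE9 sections the count of 21 became 10 with median centring, 9 with quantile normalization, 9 with only plain probe sets, 11 with only the arrays compared, 4 at a threshold of 0.01 and 13 of the 110 shared probe sets. Leaving out 1 array gave 7 to 21. For age on WT sections 14 became 8 with quantile normalization, 7 with only plain probe sets, 9 with only the arrays compared and 6 at 0.01, and leaving out 1 array gave 7 to 16. For the section in adult cells 4 became 7 with array weights, 7 with the probe set of highest SD, 9 over probe sets, 1 at 0.01 and 7 at 0.10, and leaving out 1 array gave 1 to 6. For the difference of section effects 2 became 4 with array weights, 1 over probe sets and 0 at 0.01, and leaving out 1 array gave 1 to 3. In neonatal cells 0 became 3 with array weights, and it was 0 in each fit that left out 1 array. Rpl35 turned its sign with only plain probe sets, to -0.13 on WT (adjusted p = 0.613) and -0.049 on APdE9 sections (adjusted p = 0.867). Robust eBayes and the median of probe sets moved no count by over 1.5 times.

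With the replicate number as a block, the counts were 0 in neonatal cells, 6 in adult cells, 3 for the difference, 16 for age on WT and 22 for age on APdE9 sections, where the pairing was taken to hold for the first and last. On APdE9 sections the block ended the calls of Rpl3l and Rps7 and added Rpl41, Rpl7a and Rpl7l1. It added Rps6 and Rpl27a for the section in adult cells, Rpl10a and Rps6 for age on WT sections and Rpl7l1 for the difference of section effects (0.37, adjusted p = 0.0347, higher where the other 2 are lower), and changed no direction. Restoring the decimal point of the 6 damaged values was planned and not run, since none could be restored unambiguously. Leaving out 1 array leaves 2 in a group, and all groups share 1 estimate of the spread. With levels removed, a low signal could not be told from a high one.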
